A study of Medicago truncatula with 15 samples.

Results

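*SPL9* (Medtr7g444860) and *SPL3* (Medtr4g088555) are 2 genes of the age pathway of flowering in *Medicago truncatula* (Medicago), out of 50021 loci in the transcript table. They were followed by locus through all 15 RNA-seq libraries of the series. Each locus had 1 transcript in the table (Medtr7g444860.1 and Medtr4g088555.1), so no reads were divided between isoforms and the values of transcript and gene are the same. Both genes were chosen by their measured values, since earlier results had called them lower in the triple mutant apex than in the WT apex. Their values in comparisons of the triple mutant with other apices are therefore given as a description without a test.

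SPL (SQUAMOSA PROMOTER BINDING PROTEIN-LIKE) proteins are plant transcription factors. In Arabidopsis, most of their messengers are targets of the microRNA miR156, which is abundant in young plants and declines as the plant ages, so that SPL activity builds up with age. Arabidopsis SPL9 promotes adult leaf traits and flowering and activates *SOC1*, whereas SPL3 belongs to a group of small SPL proteins that act in the shoot apex on floral genes such as *LFY*, *AP1* and *FUL*. *SOC1*, a MADS-box gene that integrates flowering signals, is the gene family mutated in this study.

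The libraries fell into 5 groups of 3, all in the ecotype R108. *Mtsoc1a* leaf and *Mtsoc1a* apex came from 15-day-old plants of 1 *Tnt1* retrotransposon insertion line in *SOC1a*, and WT leaf and WT apex from 15-day-old wild type. The triple mutant apex came from 83-day-old, non-flowering plants of 1 line made by CRISPR-Cas9 against *SOC1a*, *SOC1b* and *SOC1c*. The samples' labels name this line *Mtsoc1-4*, and the study's text *Mtsoc1-2*. All plants had 3 weeks of vernalization, were grown in 16 h light at 22 °C and were harvested 4 h after dawn. A leaf library pooled 1 leaf from each of 2 plants, and an apex library the shoot apices of 3 plants. How much stem was taken with the apex is not clear, since the labels describe the upper stem as included for the triple mutant and the study's methods describe it so for the 15-day-old plants. Estimated counts came to 30574854 to 38896407 per library in the 12 libraries of 15-day-old plants and to 13224488 to 15891830 in the triple mutant, whose libraries were made separately. Genotype, age, library preparation, depth and any difference in dissection of the triple mutant cannot be told apart in any comparison with it.

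The targeted gene followed the *Mtsoc1a* label. Its major transcript, Medtr7g075870.1, had 5, 4 and 0 counts in *Mtsoc1a* leaf against 139, 132 and 103 in WT leaf, and 26, 0 and 29 in *Mtsoc1a* apex against 393, 536 and 348 in WT apex. In the triple mutant it had 230, 238 and 294 counts, which checks nothing, since an edited gene can still be transcribed. The tissues carried their labels. A transcript was called where edgeR's adjusted p did not exceed 0.05 and the levels differed 2-fold or more. Of 24 photosynthesis transcripts, 22 were called higher in *Mtsoc1a* leaf than in *Mtsoc1a* apex and 19 in WT leaf than in WT apex, where 19.5% and 19.4% of all transcripts were. The study took these 24 from transcripts higher in the triple mutant apex. Of 7 transcripts of shoot apex genes (*HDL*, *WOX9*, 2 *WOX* loci, *TFL1c* and *LFY*), 5 were at 0 in the *Mtsoc1a* leaf libraries and 5 in those of WT leaf. *FTa1*, listed as a leaf marker, did not separate the tissues, and 6 flower organ genes summed to 45.3 to 57.6 CPM in leaf against 2.60 to 6.13 CPM in those apices.

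Levels per library are given as CPM (counts scaled to libraries of equal size, with library totals adjusted by the TMM method over all 15 libraries). *SPL9* had 43, 118 and 78 counts in *Mtsoc1a* leaf, which is 1.93, 5.45 and 3.15 CPM. In WT leaf it had 59, 42 and 109 counts, or 2.32, 1.93 and 5.10 CPM. These leaf values spread widely and the ranges of the genotypes overlapped. In the triple mutant apex *SPL9* had 185, 134 and 162 counts, or 9.36, 7.90 and 8.08 CPM. It reached 958, 846 and 679 counts (20.7, 20.03 and 15.9 CPM) in *Mtsoc1a* apex. In WT apex there were 905, 979 and 792 counts (17.6, 21.8 and 18.8 CPM). Each of the 6 apex libraries of 15-day-old plants was above each triple mutant library, and each triple mutant library was above each leaf library.

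*SPL3* was the less abundant of the pair in CPM. It had 16, 21 and 24 counts in *Mtsoc1a* leaf (0.719, 0.970 and 0.969 CPM), against 23, 6 and 12 in WT leaf (0.905, 0.276 and 0.561 CPM). In the triple mutant apex 29, 40 and 31 counts were found, or 1.47, 2.36 and 1.55 CPM. *Mtsoc1a* apex had 257, 257 and 171 counts (5.56, 6.09 and 4.00 CPM), against 240, 203 and 172 (4.68, 4.51 and 4.08 CPM) in WT apex. The steps were those of *SPL9*: leaf lowest, triple mutant apex in between, apices of 15-day-old plants highest, with no overlap between these 3 levels. The share of all transcripts with such steps was not counted, and both genes were chosen as lower in the triple mutant. With 6 to 24 counts per leaf library, counting error alone makes the leaf values of *SPL3* imprecise.

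**Figure D1:**
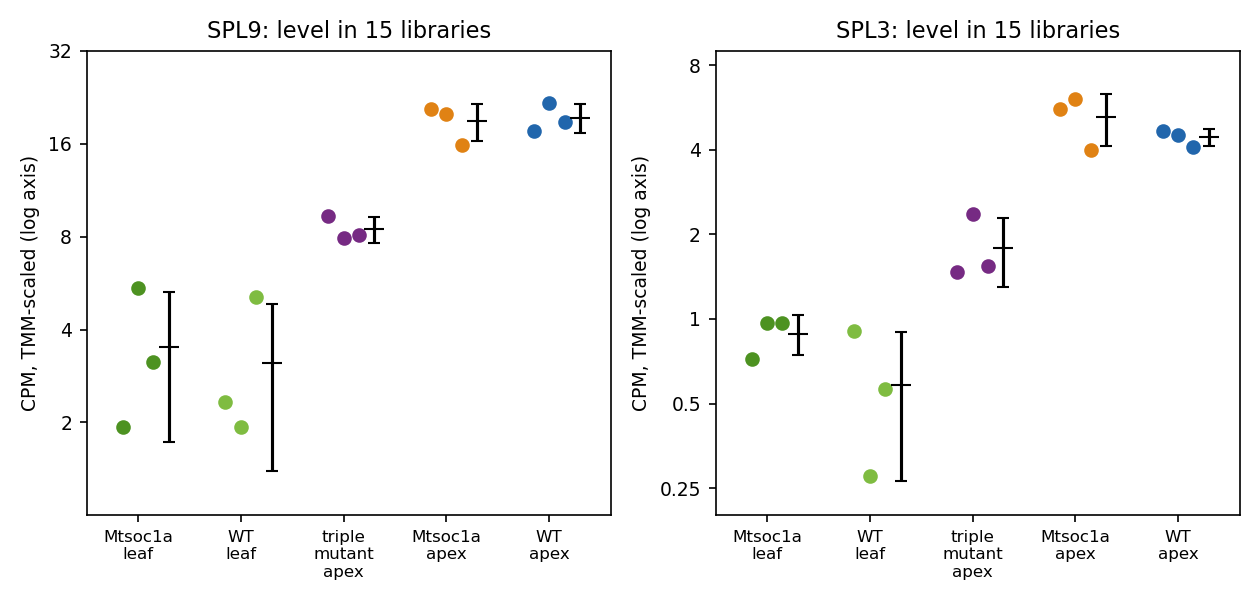
TMM-scaled CPM of *SPL9* (left) and *SPL3* (right) in 15 libraries, 3 per group, on log axes. Points are libraries, and the bar beside each group is the mean with its SD. The triple mutant libraries (7.90 to 9.36 CPM for *SPL9*, 1.47 to 2.36 CPM for *SPL3*) lie between the leaf libraries and the apices of 15-day-old plants.

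As means, *SPL9* stood at 3.51 ± 1.79 CPM in *Mtsoc1a* leaf, 3.12 ± 1.73 in WT leaf, 8.45 ± 0.796 in triple mutant apex, 18.9 ± 2.62 in *Mtsoc1a* apex and 19.4 ± 2.12 in WT apex (SD, n = 3 each). *SPL3* stood at 0.886 ± 0.145 CPM in *Mtsoc1a* leaf, 0.581 ± 0.315 in WT leaf, 1.79 ± 0.493 in triple mutant apex, 5.22 ± 1.08 in *Mtsoc1a* apex and 4.42 ± 0.308 in WT apex (SD, n = 3 each). By level, both genes were lowest in WT leaf, then in *Mtsoc1a* leaf, then in triple mutant apex. *SPL9* was highest in WT apex and *SPL3* in *Mtsoc1a* apex. The 2 leaf groups are neighbours in this order whose libraries overlap, and so are the 2 apex groups of 15-day-old plants.

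Leaf was compared with apex in each genotype to ask in which tissue the pair is expressed. Both genes were lower in leaf in both genotypes. *SPL9* in *Mtsoc1a* leaf was at 18.6% of its mean CPM in *Mtsoc1a* apex, with a log2 fold change of -2.35 (SE 0.43, edgeR adjusted p = 0.00073). *SPL3* in *Mtsoc1a* leaf was at 17.0% of *Mtsoc1a* apex, with a log2 fold change of -2.48 (SE 0.41, edgeR adjusted p = 0.000367). The *Mtsoc1a* libraries took no part in the comparison of the triple mutant with WT for which the genes were picked. By the rule for calls 22.0% of the 26683 transcripts tested were lower in *Mtsoc1a* leaf, 19.5% higher and 41.6% either, so a call by itself was common. By size, 15.9% of all transcripts had a more negative log2 fold change than *SPL9*, and 15.0% a more negative one than *SPL3*.

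In WT the tissue difference of *SPL9* was -2.61 on the log2 scale (SE 0.43, edgeR adjusted p = 0.000359), and that of *SPL3* was -2.91 (SE 0.42, edgeR adjusted p = 0.000128). *SPL9* in WT leaf was at 16.1% of its mean CPM in WT apex and *SPL3* at 13.1%. Of all transcripts tested, 22.7% were called lower in WT leaf, 19.4% higher and 42.1% either. The WT apex libraries also served in the comparison that picked the genes. The difference of the tissue effect between genotypes was tested as an interaction. It was 0.27 (SE 0.58, edgeR adjusted p = 0.958) for *SPL9* and 0.43 (SE 0.55, edgeR adjusted p = 0.898) for *SPL3*. Across all transcripts 0.0337% passed that test. The interval of 2 SE around the interaction ran from -0.89 to 1.43 for *SPL9* and from -0.68 to 1.54 for *SPL3*, so a difference of 2-fold between the genotypes was within it.

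The size of the leaf difference depended on how libraries were scaled. The 10 most abundant transcripts took 14.7% of the reads in *Mtsoc1a* leaf and 13.8% in WT leaf, against 3.37% in *Mtsoc1a* apex and 3.66% in WT apex. Scaled by library totals alone, *SPL9* was 11.8-fold lower in *Mtsoc1a* leaf and 12.6-fold lower in WT leaf, instead of 5.38-fold and 6.22-fold with TMM. *SPL3* was 12.8-fold lower in *Mtsoc1a* leaf and 15.6-fold lower in WT leaf, instead of 5.89-fold and 7.62-fold. That scaling moved the median log2 ratio of all transcripts to -1.20 in *Mtsoc1a* and -1.11 in WT, from -0.16 and -0.14 with TMM. Relative to that median, *SPL9* was lower by a log2 ratio of -2.36 in *Mtsoc1a* and -2.55 in WT with library totals, and of -2.27 and -2.50 with TMM. The direction and the call of both genes were the same under either scaling.

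The other SPL genes of the list give the family around the pair. The age list holds 10 loci with 12 transcripts, all of which passed the filter on low counts in this fit. Of the 10 transcripts other than *SPL9* and *SPL3*, 6 were called lower and 1 higher in *Mtsoc1a* leaf than in apex, where 22.0% of all transcripts were lower and 19.5% higher. In WT leaf 5 of the 10 were lower and 1 higher, where 22.7% of all transcripts were lower and 19.4% higher. The median log2 fold change of these 10 was -2.90 in *Mtsoc1a*, beside -0.09 for all transcripts, and -2.14 in WT, beside -0.13. With *SPL9* and *SPL3* included, the medians were -2.64 and -2.76. *SPL4* had 0, 11 and 0 counts in *Mtsoc1a* leaf against 727, 417 and 509 in *Mtsoc1a* apex. *SPL2* and *SPL13a*, named for Arabidopsis genes of the larger miR156-targeted class, were lower in *Mtsoc1a* leaf by log2 fold changes of -2.81 (SE 0.33) and -3.00 (SE 0.25). *SPL15a* was lower still, at -4.62 (SE 0.71) in *Mtsoc1a* and -5.85 (SE 0.76) in WT. The largest edgeR adjusted p among these 4 genes in both genotypes was 0.0131, for *SPL4* in WT.

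*SPL15b* had no count in any of the 6 leaf libraries. Against a floor of 3 counts over a group, it was at least 15.3-fold lower in *Mtsoc1a* leaf and at least 16.9-fold lower in WT leaf. The only member of the family called higher in leaf was *SPL5b*. It had 246, 250 and 194 counts in *Mtsoc1a* leaf against 101, 77 and 84 in *Mtsoc1a* apex, a log2 fold change of 2.42 (SE 0.31, edgeR adjusted p = 5.27e-05), and 2.46 (SE 0.31, edgeR adjusted p = 4.52e-05) in WT. *SPL13c* was not called in either genotype, at log2 fold changes of -0.23 and -0.09. *SPL7*, whose Arabidopsis namesake regulates copper responses and is not a miR156 target, has 3 transcripts. Its transcripts 1 and 3 were not called. Transcript 1 had the higher mean in leaf, at 33.3 against 23.0 CPM in *Mtsoc1a* and 31.2 against 20.7 CPM in WT. Its unadjusted edgeR p was under 0.05 in both genotypes. Transcript 2 was called lower in *Mtsoc1a*, with 0 counts in its leaf and 296, 319 and 369 in its apex. Its split from the other transcripts of that locus is uncertain, since WT leaf had 58, 0 and 239 counts. With the transcripts at 0 set to their bounds, the medians of all 12 were again -2.64 and -2.76.

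**Figure D2:**
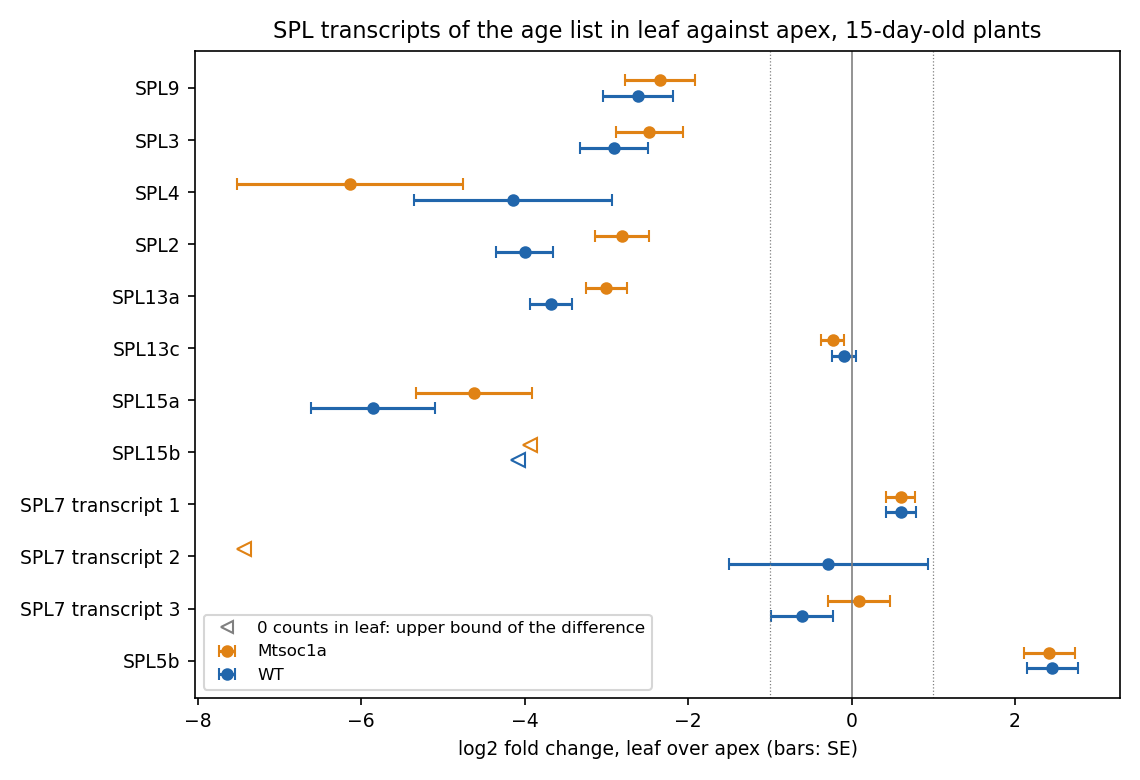
Log2 fold change of leaf over apex, with SE, for the 12 SPL transcripts of the age list in *Mtsoc1a* (orange) and WT (blue), 3 libraries per group. Dotted lines mark a 2-fold change, and open triangles are bounds where leaf had 0 counts. *SPL9* (-2.35 and -2.61) and *SPL3* (-2.48 and -2.91) lie on the leaf-low side with most of the family, and *SPL5b* (2.42 and 2.46) lies on the other.

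The *Tnt1* insertion in *SOC1a* was compared with WT within each tissue. *SPL9* in *Mtsoc1a* apex was at 97.3% of its mean CPM in WT apex, with a log2 fold change of -0.03 (SE 0.13, edgeR adjusted p = 0.966) and an interval of 2 SE from -0.29 to 0.24. *SPL3* was at 118% of WT apex, with a log2 fold change of 0.25 (SE 0.24, edgeR adjusted p = 0.776) and an interval from -0.23 to 0.73. Neither interval reaches a 2-fold change in either direction. Of 25935 transcripts tested in apex, 0.0154% were called. In leaf the log2 fold change of *Mtsoc1a* over WT was 0.19 for *SPL9* (SE 0.55, edgeR adjusted p = 0.962), with an interval from -0.92 to 1.29. It was 0.63 for *SPL3* (SE 0.65, edgeR adjusted p = 0.852), with an interval from -0.66 to 1.93. In leaf a 2-fold rise was within both intervals, so the data cannot exclude a rise of that size there. Of 21993 transcripts tested in leaf, 0.05% were called. The apex comparison shares its WT libraries with the comparison that picked the genes.

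The rest of the age list likewise gave no call between *Mtsoc1a* and WT. With edgeR 0 of the 10 other transcripts were called in apex and 0 of the 6 tested in leaf, and DESeq2 also called 0 in both. At an unadjusted p under 0.05 there were 2 in apex, *SPL2* and *SPL15a*, and 0 in leaf. *SPL2* was at 13.4, 15.1 and 12.7 CPM in *Mtsoc1a* apex against 21.1, 18.4 and 23.6 CPM in WT apex. Its values did not overlap, but its edgeR adjusted p was 0.186. The share of all transcripts without overlap between these groups was not counted. For the interaction of genotype and tissue, edgeR called 0 of these 10, with *SPL2* and *SPL7* transcript 2 at an unadjusted p under 0.05. DESeq2 called 1, *SPL7* transcript 2.

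The 83-day-old triple mutant was set against the 15-day-old apices to describe the pair in a shoot that had still not flowered at that age. The 15-day-old *Mtsoc1a* and WT plants had not flowered either, since the study saw no floral buds on them. *SPL9* averaged 8.45 CPM in triple mutant apex and 19.4 CPM in WT apex, a log2 ratio of means of -1.20, or 43.6% of WT. *SPL3* averaged 1.79 CPM in triple mutant apex and 4.42 CPM in WT apex, a log2 ratio of -1.30, or 40.5% of WT. Against *Mtsoc1a* apex the triple mutant was at 44.7% for *SPL9* and at 34.3% for *SPL3*. These are the values by which the genes were picked, and the comparisons share the triple mutant libraries. In these fits 4.83% of transcripts were called lower and 1.60% higher in triple mutant apex against WT apex. Against *Mtsoc1a* apex 6.77% were called lower and 3.04% higher. The genes lay just inside the 2-fold threshold of the choice, and *SPL4*, at a log2 fold change of -0.94 against WT, lay just outside it.

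The triple mutant apex was nonetheless above leaf for both genes. *SPL9* in triple mutant apex was 2.41 times its mean CPM in *Mtsoc1a* leaf and 2.71 times that in WT leaf. *SPL3* in triple mutant apex was 2.02 times its mean in *Mtsoc1a* leaf and 3.08 times that in WT leaf. Tissue, age and genotype all differ in these ratios, and no test was made. Shoot apex markers were lower in the triple mutant as a sum, with few called singly. The 7 shoot apex transcripts summed to 10.7 to 12.5 CPM in triple mutant apex, against 21.4 to 32.5 CPM in *Mtsoc1a* apex and 18.6 to 25.6 CPM in WT apex. Of the 6 tested, 1 was called lower against WT apex and 2 against *Mtsoc1a* apex, where 4.83% and 6.77% of all transcripts were. *HDL* had no count in the triple mutant, but only 0, 3 and 6 in *Mtsoc1a* apex and 4, 14 and 7 in WT apex, in deeper libraries. The 24 photosynthesis transcripts summed to 904 to 1671 CPM in triple mutant apex, against 281 to 415 CPM in *Mtsoc1a* apex and 240 to 398 CPM in WT apex, a direction that the choice of that list fixes. A single transcript, Medtr6g011870.1, held the largest share of these sums, with means of 622 CPM in triple mutant apex, 314 in *Mtsoc1a* apex and 269.7 in WT apex. The part of these markers in the values of *SPL9* and *SPL3* was not tested. In tissue samples such as these, fewer cells expressing a gene and less RNA per cell cannot be told apart.

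The other SPL genes did not share one direction in the triple mutant. Of the 10 other transcripts of the age list, edgeR called 0 against WT apex, where 6.43% of all transcripts were called in either direction. At an unadjusted p under 0.05 there were 3, *SPL4*, *SPL15b* and *SPL7* transcript 1, and DESeq2 called 1, *SPL15b*. With DESeq2's size factors in edgeR, and with counts summed to loci, 1 was called higher. Without *Mtsoc1a* apex replicate 1 or 2 *SPL15b* was called higher, at a log2 fold change of 1.57 each time (edgeR adjusted p 0.0475 and 0.0391). *SPL4* was called lower without WT apex replicate 1 (log2 fold change -1.01) and without triple mutant apex replicate 2 (-1.06), and 1 other transcript was called lower without triple mutant apex replicate 3. The median log2 fold change of the 10 was -0.18, beside -0.03 for all transcripts. Against *Mtsoc1a* apex 1 was called higher and 1 lower, where 9.81% of all transcripts were called. *SPL15b* had 41, 47 and 36 counts in triple mutant apex against 44, 14 and 31 in *Mtsoc1a* apex. Scaled for depth, that is 2.08, 2.77 and 1.80 CPM against 0.952, 0.332 and 0.725 CPM, a log2 fold change of 1.71 (SE 0.47, edgeR adjusted p = 0.031). *SPL4* was at 6.02, 6.84 and 4.69 CPM in triple mutant apex against 15.7, 9.87 and 11.9 CPM in *Mtsoc1a* apex, a log2 fold change of -1.11 (SE 0.21, edgeR adjusted p = 0.0074).

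Both calls against *Mtsoc1a* apex depended on single libraries. *SPL15b* lost its call without *Mtsoc1a* apex replicate 2 or 3 and without triple mutant apex replicate 1, 2 or 3, at log2 fold changes of 1.38 to 1.83 (edgeR adjusted p 0.0647 to 0.105). *SPL4* fell under the fold threshold without *Mtsoc1a* apex replicate 1 (log2 fold change -0.90) and without triple mutant apex replicate 3 (-0.97). *SPL2* and *SPL15a*, at log2 fold changes of 0.72 (edgeR adjusted p = 0.00444) and 0.64 (edgeR adjusted p = 0.0228), stayed under 2-fold against *Mtsoc1a* apex. The remaining transcripts of *SPL7*, *SPL13a*, *SPL13c* and *SPL5b* were not called in either comparison.

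**Figure D3:**
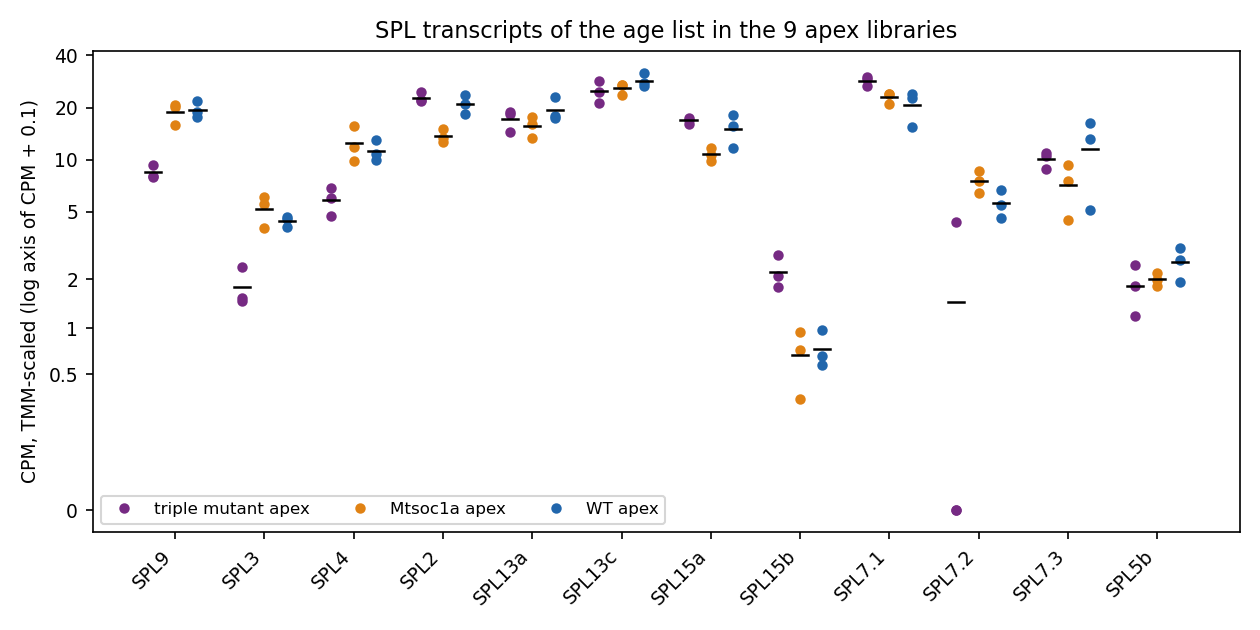
TMM-scaled CPM of the 12 SPL transcripts of the age list in the 9 apex libraries, on a log axis of CPM plus 0.1. Points are libraries (3 per group), black lines are means, and the number after *SPL7* is its transcript. *SPL9*, *SPL3* and *SPL4* were lower in each triple mutant library than in each other apex library. So was *SPL7* transcript 2, but narrowly: its highest triple mutant value was 4.34 CPM and its lowest WT apex value 4.62 CPM. Its other triple mutant values were 0, and its split from the other *SPL7* transcripts is uncertain. *SPL15b* and *SPL7* transcript 1 were higher in each, and the other transcripts overlapped WT apex. *SPL9* and *SPL3* were chosen by this contrast, and the share of all transcripts that separate in this way was not counted.

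TPM (counts corrected for transcript length and scaled to a common total) was used to compare levels between genes, with 1 authors' mean per group. Per length the pair were close to each other. The TPM of *SPL9* was 1.66 in *Mtsoc1a* leaf, 1.61 in WT leaf, 9.09 in triple mutant apex, 21.5 in *Mtsoc1a* apex and 19.3 in WT apex. That of *SPL3* was 2.07 in *Mtsoc1a* leaf, 1.45 in WT leaf, 7.50 in triple mutant apex, 30.5 in *Mtsoc1a* apex and 21.8 in WT apex. The ratio of *SPL9* to *SPL3* in TPM lay between 0.704 (*Mtsoc1a* apex) and 1.21 (triple mutant apex). Among the 10 loci by TPM, *SPL3* ranked 2 and *SPL9* ranked 4 in *Mtsoc1a* apex, and 3 and 4 in WT apex, below *SPL4*, which was highest at 68.4 and 56.3 TPM. In triple mutant apex *SPL3* ranked 8 and *SPL9* ranked 7. In WT leaf the highest locus was *SPL5b*, at 19.4 TPM. These group values carry no replicate error.

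Genes next to the age pathway were set beside the pair. AP2-like proteins repress flowering in Arabidopsis, where a microRNA downstream of SPL9 lowers them. The 5 transcripts of 2 AP2-like loci gave 0 calls in each of the 7 comparisons with edgeR and 0 with DESeq2. At an unadjusted p under 0.05 there was 1 in *Mtsoc1a* leaf against apex and 1 in WT leaf against apex, Medtr4g094868.2 each time, at log2 fold changes of -0.81 and -0.57, and 0 in each of the other comparisons. The *SOC1* genes and the floral genes on which SPL proteins act in Arabidopsis went in both directions in the triple mutant. *FULb*, a MADS-box gene, had 347, 293 and 401 counts in triple mutant apex against 188, 68 and 118 in WT apex, a log2 fold change of 2.78 (SE 0.31, edgeR adjusted p = 0.00172). *AP1*, which specifies floral meristems, had 1, 0 and 0 counts in triple mutant apex against 133, 17 and 140 in WT apex (edgeR adjusted p = 0.0204). In *Mtsoc1a* apex *AP1* had 0, 0 and 0 counts, so its low count was not particular to the triple mutant. *LFY*, also a floral meristem gene, was lower in triple mutant apex by a log2 fold change of -1.10 (SE 0.32, edgeR adjusted p = 0.0472). That list has 9 loci with 11 transcripts tested, and *FULb* was its 1 call upward and *AP1* and *LFY* its 2 calls downward against WT apex. *SOC1c* was not called there. Its transcripts Medtr8g033220.1 and Medtr8g033220.2 averaged 14.3 and 12.8 CPM in triple mutant apex, against 4.00 and 1.11 CPM in WT apex. The second had 12, 27 and 105 counts in WT apex, so its level there is uncertain. The study reports both *SOC1c* and *FULb* as elevated in the triple mutant.

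Against *Mtsoc1a* apex, 8 of these 11 transcripts were called higher in triple mutant apex, where 3.04% of all transcripts were, while *SPL9* and *SPL3* were lower. The higher ones were both transcripts of *SOC1a*, *SOC1b*, 1 transcript of *SOC1c*, *FULa*, *FULb*, *FULc* and *AP1b*. The *Tnt1* insertion of *Mtsoc1a* lies in *SOC1a*, so both calls of *SOC1a* are set by the comparator. *SOC1a*, *SOC1b* and *SOC1c* are also the genes edited in the triple mutant. *SOC1b* averaged 0.477 CPM in *Mtsoc1a* apex, 1.95 in triple mutant apex and 2.75 in WT apex. *FULc* was likewise lower in triple mutant apex than in WT apex, at means of 0.304 and 0.865 CPM. The other called transcripts had means above those of WT apex. *FULc* and *AP1b* had 0 counts in each *Mtsoc1a* apex library, against 2, 7 and 8 and 36, 7 and 6 in triple mutant apex. Against WT apex the same list had 1 call upward and 2 downward. In *Mtsoc1a* leaf against apex, 3 were higher (*FULa*, *FULc* and *AP1*) and *LFY* was lower, beside 19.5% higher and 22.0% lower among all transcripts. *AP1*, like *FULc*, had 0 counts in each *Mtsoc1a* apex library. In WT leaf against apex, 3 were lower (*SOC1b*, *AP1b* and *LFY*), beside 22.7% of all transcripts. Shares of 3 in 11 are close to these backgrounds. *LFY* had no count in leaf in either genotype. It was the member of this list that was called lower in leaf in both genotypes, as *SPL9* and *SPL3* were.

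Across the 15 libraries the levels of *SPL9* and *SPL3* went together, with a Pearson correlation of log2(CPM + 1) of 0.94 and a Spearman rho of 0.93. The points share group, tissue, age and depth. Over the 9 apex libraries Pearson's r was 0.93 and Spearman's rho 0.78. Both genes were chosen as lower in the triple mutant apex, which by itself raises the values over 9 and over 15 libraries. Over the 6 apex libraries of 15-day-old plants Pearson's r was 0.55, and over the 6 leaf libraries 0.34.

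**Figure D4:**
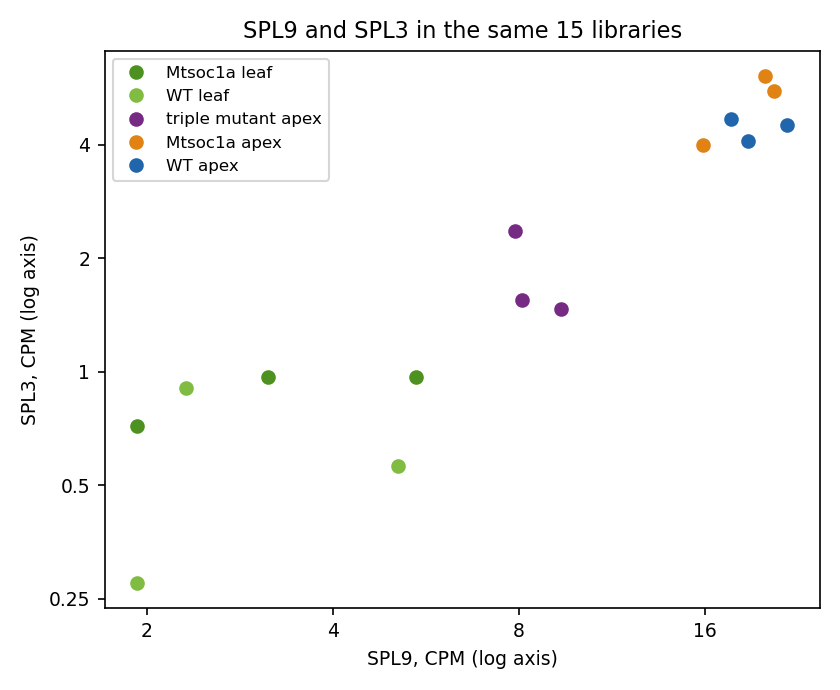
TMM-scaled CPM of *SPL9* (x) and *SPL3* (y) in the same 15 libraries, both on log axes, with 1 point per library coloured by group. The points fall into 3 clouds: leaf at 0.276 to 0.970 CPM of *SPL3*, triple mutant apex at 1.47 to 2.36 CPM, and apices of 15-day-old plants at 4.00 to 6.09 CPM.

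Of 27338 transcripts with enough counts, those most like *SPL9* over the 15 libraries were Medtr8g052170.1, Medtr6g009590.1, Medtr7g086710.1, Medtr1g103070.1 and Medtr7g094940.1, with Pearson's r of 0.966 to 0.968. The most like *SPL3* were Medtr3g452710.1, Medtr1g083860.1, Medtr1g111150.1, Medtr8g066950.1 and Medtr8g092860.1, with r of 0.963 to 0.969. None of the 10 has a name in the sources used here. Medtr1g103070.1 was the most abundant of the first set, with mean levels of 3.01 CPM in *Mtsoc1a* leaf, 2.21 in WT leaf, 11.2 in triple mutant apex, 33.1 in *Mtsoc1a* apex and 25.5 in WT apex. Within the age list *SPL4* was nearest to *SPL9*, at an r of 0.964 with 6 transcripts above it. *SPL9* was nearest to *SPL3*, with 55 transcripts above it, followed by *SPL4* at an r of 0.907 with 325 above it. The choice of *SPL9* and *SPL3* as lower in the triple mutant favours their likeness to each other. *SPL5b* ran opposite, at -0.82 with *SPL9* and -0.75 with *SPL3*. So did *SPL7* transcript 1, at -0.817 and -0.708.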

How the data were processed

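The authors trimmed reads of strand-specific polyA libraries with fastp and ran Salmon 0.8.2 on the Mt4.0v2 transcriptome. The deposited table holds estimated counts for 57124 transcripts, and a second table from the authors holds TPM as 1 value per group. In 1 count column, *Mtsoc1a* apex replicate 3, 9856 values had decimals, and counts were rounded. The authors tested with DESeq2 1.24.0. Here edgeR 4.0.16 in R 4.3.3 was used: quasi-likelihood F-test, robust, TMM, filter at a minimum count of 10, Benjamini-Hochberg over all transcripts. The 12 libraries of 15-day-old plants shared a fit for leaf against apex (26683 tested), the 9 apex libraries another (25935) and the 6 leaf libraries another (21993). SE is the log2 fold change over the root of F. DESeq2 1.42.0 was an alternative. The script was tested on simulated data. Replicates were separate pools of plants.

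The genes, lists and alternatives were chosen with earlier results of these data known. Loci of the lists came from the study's tables. The photosynthesis list was chosen there on values of these samples, and the other lists were taken without values. The AP2-like genes, and the *SOC1* and floral genes set beside the pair, were grouped by roles known in Arabidopsis. Named were *SPL9*, *SPL3*, other age-list transcripts when called, the 5 transcripts most correlated with each, and other list genes when called or standing beside a result. *SPL13c*, *SPL7* transcripts 1 and 3, *SPL2* in *Mtsoc1a* against WT, the AP2-like transcript, Medtr6g011870.1 and the remaining uncalled transcripts were named after their values were seen. Depth bounds the precision: an *SPL3* value in leaf rests on 6 to 24 counts. No locus matched the reference gene table, so no coordinates or sequences are given.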

Additional observations from a re-analysis of the deposited data

How the results depend on the processing

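Leaf below apex held its direction and call for *SPL9* and *SPL3* in both genotypes under all 20 alternatives (log2 fold changes of -3.67 to -2.17 in *Mtsoc1a* and -3.94 to -2.43 in WT). Not all of these could test it. Dropping the fold threshold could not remove a call. Leaving out a library of the other genotype kept all the libraries compared. Summing to loci kept the counts of these genes, which have 1 transcript each. The most negative values came from scaling by library totals in edgeR, an alternative chosen after seeing the data. Neither gene was called between *Mtsoc1a* and WT, or in the interaction, under any alternative. Without 1 library, *SPL3* in triple mutant apex against WT apex ranged from -1.55, without triple mutant apex replicate 2, to -1.18.

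By library totals *SPL9* averaged 10.8 CPM in triple mutant apex, 26.1 in *Mtsoc1a* apex and 26.2 in WT apex, and *SPL3* averaged 0.563 CPM in *Mtsoc1a* leaf, 2.28 in triple mutant apex, 7.21 in *Mtsoc1a* apex and 5.98 in WT apex.

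Counts of calls over all transcripts moved more, and the cause was not tested. The interaction, 9 calls, had 381 with DESeq2, 14 with counts summed to loci, 20 in a fit over all 15 libraries and 0 to 38 without 1 library. *Mtsoc1a* against WT, 4 calls in apex and 11 in leaf, had 358 and 226 with DESeq2 and 51 and 47 with counts summed to loci. In apex it had 1 to 14 without 1 library. In leaf it had 19 with no filter, 133 in the fit over all 15 libraries, 5 with library totals and 2 to 10 without 1 library. The triple mutant had 1667 calls against WT apex and 2544 against *Mtsoc1a* apex, 4191 and 5953 with no fold threshold, and 992 to 1660 against WT without 1 library.

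Deviations of libraries with the same replicate number correlated at -0.151 to 0.163 between leaf and apex and at -0.141 to 0.0796 between apex groups. Different numbers reached 0.211 and 0.239 there, so pairing by number was not shown for these libraries. With 3 libraries per group, these values cannot exclude it. Between leaf groups, same numbers correlated at 0.00289 to 0.277 and different numbers at -0.275 to 0.039. Leaf replicates 1 and 2 correlated best with their own number and replicate 3 did not, so pairing between leaf groups was not settled. In none of these comparisons did every library correlate best with its own number. With the replicate block the interaction had 0 calls, *Mtsoc1a* against WT 1 in apex and 47 in leaf, and no call of *SPL9* or *SPL3* changed. The leaf libraries of *SPL3* limit any difference between leaf groups.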
